A study of Mus musculus with 12 samples.

Results

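Compound C2 was given to mice on a high-fat diet, and the results below describe their liver RNA against that of mice on the same diet without the compound across all genes. The members are 6 of the series' 12 libraries: the 3 labelled HFD and the 3 labelled HFD+C2, chosen by label. All came from the liver of C57BL/6N mice fed a diet with 60% of its energy from fat for 12 weeks. The HFD+C2 mice also received C2 intraperitoneally at 5 mg/kg per day over 12 weeks, and the labels do not say whether the HFD mice were injected with a vehicle. C2 is known only by its code; the series title describes it, together with a second compound C1, as an inhibitor of CYP4A. The HFD+C1 group, on the same diet and given C1 at the same dose and time, enters 1 comparison at the end. The chow group (NCD) enters only an alternative fit of all 12 libraries. The sex and age of the mice are not given in the labels used here.

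CYP4A enzymes are cytochrome P450 proteins of the endoplasmic reticulum that add a hydroxyl group to the far end of fatty acids. Their genes are targets of PPARA, the fatty acid sensor that switches on fatty acid oxidation in the fasting liver. A liver that stores fat on a high-fat diet makes fatty acids with ACC and FASN, joins them into triglyceride and packs the triglyceride into droplets coated with perilipin and CIDE proteins. These are the pathways around which the genes are ordered below.

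Reads counted in genes ranged from 23132853 to 32124248 per library. Albumin RNA, the defining product of hepatocytes, was at 52008 to 106802 CPM (the usual count relative to library size, here the reads in genes, scaled between the 6 libraries by the TMM method), and all 10 hepatocyte markers were tested. The markers of skeletal muscle summed to at most 0.700 CPM in a library, and 5 of the 10 pancreatic acinar markers had no read in any. In bulk liver, fewer cells of a type and less RNA per cell cannot be told apart. The labels call the libraries biological replicates and do not say that each is 1 mouse, so p-values measure the spread between these samples.

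HFD+C2 replicate 1 stood apart from the other 5 libraries. Log2 changes are therefore given with it and, where a last value follows a semicolon in the bracket, again without it. In that library 47.1% of the reads were outside genes, against 27.4% to 32.9% in the others. In it 262 genes were more than 2-fold above all 5 other libraries and 363 more than 2-fold below them; the other libraries had 2 to 36 and 27 to 81 such genes. RNA overlapping ribosomal repeats was high in it: Rn18s-rs5 was at 108395 CPM, against 8906 to 19277 CPM elsewhere. The 7SK RNA Rn7sk, a separate small nuclear RNA, was high as well, at 301 CPM, against 12.0 to 30.4 CPM. The mitochondrially encoded protein-coding RNAs were low: their sum was 19105 CPM, against 63375 to 88987 CPM, and ND4 was at 495 CPM, against 3724 to 5706 CPM. The mitochondrial ribosomal RNAs lay the other way. In HFD+C2 replicate 1 mt-Rnr1 was at 18222 CPM, against 3268 to 6344 CPM, and mt-Rnr2 at 14141 CPM, against 2258 to 3993 CPM. The genes were put into 5 equal groups by the GC content of the transcript. The median log2 ratio of HFD+C2 replicate 1 to replicates 2 and 3 went from 0.19 at the lowest GC to -0.35 at the highest. The same ratio between HFD+C2 replicates 2 and 3 stayed between -0.0051 and 0.016. HFD replicate 1 had a slope of the opposite sign against its own group, from -0.14 to 0.14. The change from HFD to HFD+C2 itself had a median of 0.18 in the group of lowest GC and -0.18 in that of highest. Without HFD+C2 replicate 1 these were 0.081 and -0.078. With the genes grouped by transcript length, the median change was 0.0017 in the shortest group and 0.026 in the longest. Without HFD+C2 replicate 1 the trend along length was larger, with -0.17 in the shortest group and 0.051 in the longest. Such medians are as large as many list medians below. The part of RNA quality or library preparation in these differences was not tested.

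**Figure D1:**
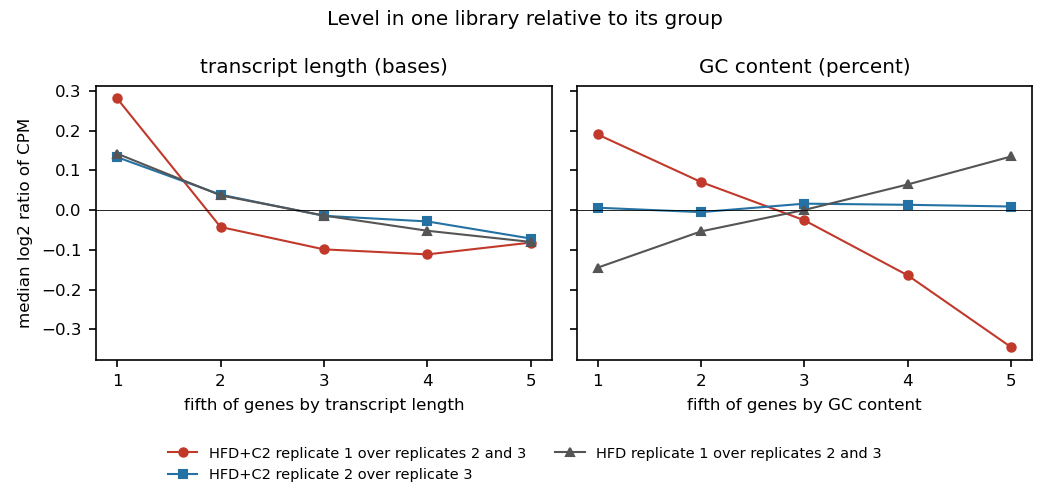
Median log2 ratio of CPM (vertical axis) of 1 library over others of its group, for 5 equal groups of the tested genes ordered by transcript length (left) and by GC content (right). Along GC content the red line, HFD+C2 replicate 1 over replicates 2 and 3, falls from 0.19 to -0.35. The blue line, replicate 2 over replicate 3, stays near 0 there. From the shortest to the longest transcripts the red line goes from 0.28 to -0.082 and the blue line from 0.13 to -0.072.

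Across the genes tested, 3 were lower in the C2-treated livers by the criterion used, Cish, Phlda1 and Gadd45g, and 0 were higher (0.00%). They made up 0.0222% of the 13503 genes tested, those averaging 10 counts or more. A gene is said to be called where the quasi-likelihood test of edgeR, adjusted by Benjamini-Hochberg over all of these, gave an adjusted p under 0.05. Before adjustment 931 genes (6.89%) had a p under 0.05, 500 of them lower (3.70%) and 431 higher (3.19%). The groups did not overlap for 13.6% of the genes, 6.94% with HFD+C2 lower and 6.69% with it higher. The middle 90% of genes had log2 changes from -0.56 to 0.59, and 216 genes (1.60%) reached 1 in size. The biological coefficient of variation was 0.222. Without HFD+C2 replicate 1 the same test called 27 of 13537 genes (0.199%), 10 higher (0.0739%) and 17 lower (0.126%), with Cish, Phlda1 and Gadd45g among them; 1501 genes (11.1%) then had an unadjusted p under 0.05, 850 lower (6.28%) and 651 higher (4.81%).

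Cish encodes CIS, a member of the SOCS family that binds activated cytokine and growth hormone receptors; its transcription is a direct and rapid readout of STAT5. STAT5 dimers bind the palindrome TTCNNNGAA. The stretch around the RefSeq start site of Cish (GRCm38.p6, chr9:107296409-107296688, plus strand, 250 bases before the start and 30 after it) is shown because the letters of that motif occur in it 2 times, in capitals, beginning at bases 1 and 12 counted from the start site.

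Cish: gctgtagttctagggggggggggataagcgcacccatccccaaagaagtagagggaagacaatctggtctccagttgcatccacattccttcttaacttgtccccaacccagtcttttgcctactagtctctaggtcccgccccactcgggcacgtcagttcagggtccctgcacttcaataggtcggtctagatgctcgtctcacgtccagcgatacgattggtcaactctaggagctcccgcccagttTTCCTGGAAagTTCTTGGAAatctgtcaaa

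The motif is its own reverse complement, so 1 strand covers both. It occurred at least once in 6.98% of the 300-base start-site windows of the tested genes in the RefSeq table (250 bases before the start and 50 after it) and at least 2 times in 0.400% of them. It was not found in the corresponding window of Gadd45g, and a window for Phlda1 was not analysed here. A match of letters is a description and says nothing of STAT5 binding in these livers.

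Cish (chr9:107296659-107302784, GRCm38.p6) was at 10.8, 21.4 and 10.3 CPM in the HFD livers and at 1.04, 1.16 and 1.16 CPM in the HFD+C2 livers. The groups were far apart and the HFD+C2 livers almost equal, each resting on 22 to 31 reads. The fall was to 0.0795 of the HFD level, a log2 change of -3.65 (SE 0.33, edgeR adjusted p 0.00753), and -3.61 without HFD+C2 replicate 1. None of the other genes of growth hormone and STAT5 feedback was called. Of the 14 tested members of that list, 1 was called (0.0222% of all genes) and 1 more had an unadjusted p under 0.05 (6.89% of all genes), and the median log2 change was -0.12 (0.12 without HFD replicate 2), against 0.016 for all genes tested. Socs2, another STAT5-driven feedback inhibitor, was at 3.40, 11.9 and 3.60 CPM in HFD and 3.65, 2.02 and 6.13 CPM in HFD+C2 and did not pass (log2 change -0.68, SE 0.53, edgeR adjusted p 0.739; -0.63). Bcl6, a repressor that STAT5 itself turns down in the male liver, was at 11.4, 3.95 and 11.7 CPM and then at 23.3, 21.8 and 29.9 CPM. Its groups did not overlap, but it missed the threshold (log2 change 1.47, SE 0.35, edgeR adjusted p 0.695; 1.52). Socs2 and Dbp, a clock gene described below, and the RNAs that describe HFD+C2 replicate 1 were named after their values were seen.

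Phlda1 (chr10:111506286-111508649) encodes a pleckstrin-homology-like protein linked to cell survival and growth factor signalling. It was at 69.5, 82.0 and 65.5 CPM in HFD and at 18.4, 18.5 and 21.9 CPM in HFD+C2, with no overlap. The fall was to 0.271 of the HFD level (log2 change -1.88, SE 0.16, edgeR adjusted p 0.00753; -1.84 without HFD+C2 replicate 1). Gadd45g (chr13:51846675-51848475), a stress-inducible partner of cell cycle and MAP kinase proteins, was at 20.2, 10.8 and 19.4 CPM in HFD and at 3.93, 3.33 and 3.90 CPM in HFD+C2. The fall was to 0.221 of the HFD level (log2 change -2.17, SE 0.26, edgeR adjusted p 0.0494; -2.22 without HFD+C2 replicate 1).

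Phlda1 and Gadd45g were the called members among 15 tested genes of DNA damage and Phlda stress, against 0.0222% of all genes. Of the 15, 12 were below 0, against 47.8% of all genes, with a median of -0.27. The list was chosen with earlier results of these data known, so these shares describe it and test nothing. Of the remaining members, Cdkn1a, the p21 inhibitor of the cell cycle, was at 16.1, 9.83 and 15.1 CPM in HFD and 6.68, 7.12 and 6.17 CPM in HFD+C2. Trib1, a pseudokinase scaffold, was at 27.2, 22.9 and 27.3 CPM and then at 16.2, 13.5 and 18.7 CPM. In both the groups did not overlap, but neither passed (edgeR adjusted p 0.625 and 0.695). Immediate-early genes, which are switched on within minutes of a stimulus, had 5 of 20 members with an unadjusted p under 0.05 that were lower, against 3.70% of all genes, and 1 that was higher. Their median was -0.43, or -0.27 without HFD+C2 replicate 1. Jund, a subunit of AP-1, had a log2 change of -0.85 (SE 0.27; -0.57), Jun one of -0.77 (SE 0.28; -0.76) and Dusp1, a phosphatase of MAP kinases, one of -0.68 (SE 0.24; -0.61), none called. Egr1 lay the other way at 0.76 (SE 0.25; 0.74), also uncalled.

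The 3 calls did not survive every smaller comparison. With HFD replicate 1 left out, edgeR called 0 genes (308 at an unadjusted p under 0.05): the edgeR adjusted p was 0.0576 for Cish, 0.0722 for Phlda1 and 0.459 for Gadd45g. Leaving out HFD+C2 replicate 3 also gave 0 (1250 at an unadjusted p under 0.05), with edgeR adjusted p of 0.0726, 0.0532 and 0.170. For Gadd45g the call was lost as well when HFD replicate 3 (edgeR adjusted p 0.409) or HFD+C2 replicate 2 (0.274) was left out. With all 6 libraries kept, the call of Gadd45g was also lost under RLE scaling (edgeR adjusted p 0.0511), upper-quartile scaling (0.0609), a filter at 50 counts (0.0701) and GC offsets (0.170), and in limma-voom (adjusted p 0.140), where Cish missed the threshold too (0.0521). In the edgeR fit of all 12 libraries the adjusted p was 0.756 for Cish, 0.438 for Phlda1 and 0.869 for Gadd45g. Over the 6 fits that each left out a library the log2 change of Cish stayed between -3.83 and -3.22, that of Phlda1 between -1.96 and -1.77 and that of Gadd45g between -2.40 and -2.02.

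**Figure D2:**
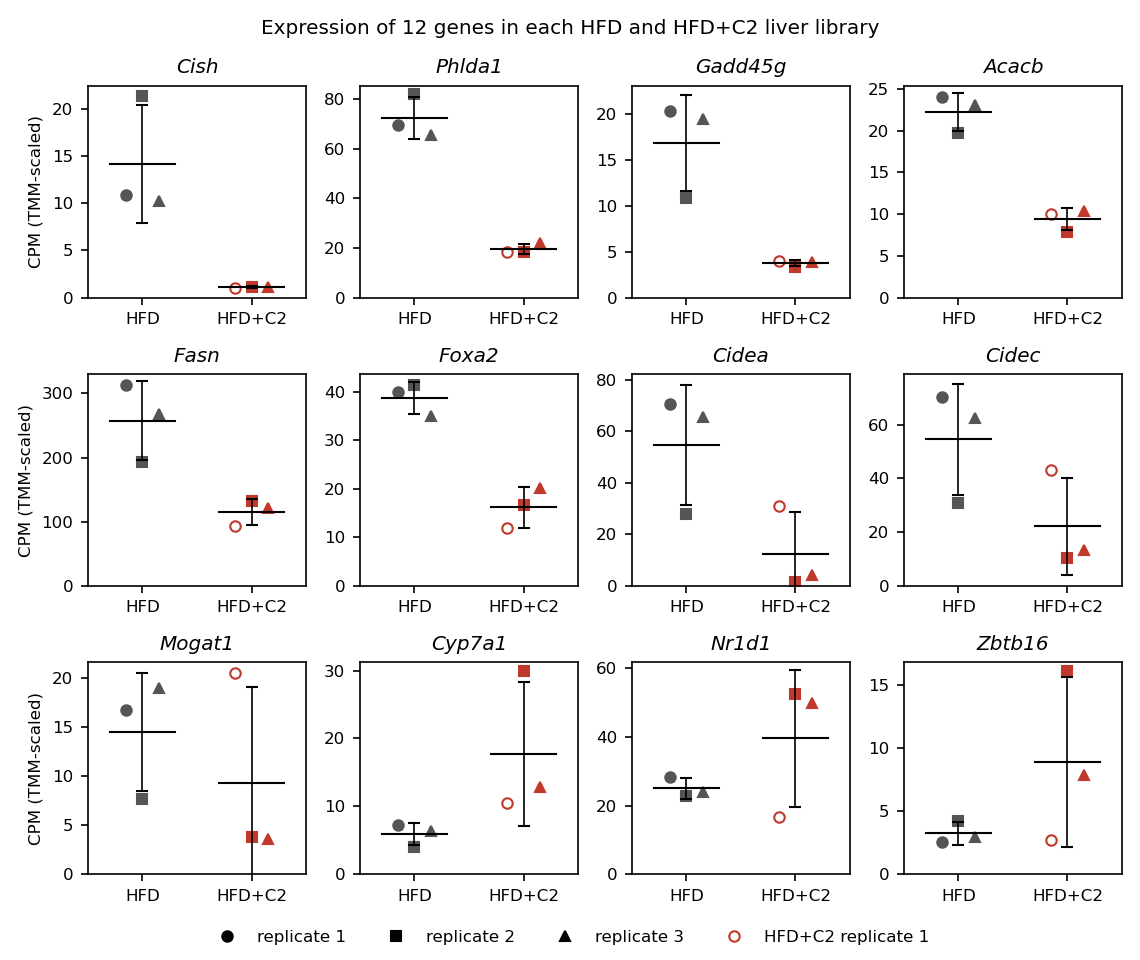
CPM (vertical axis, from 0) of 12 genes in the 3 HFD libraries (grey) and the 3 HFD+C2 libraries (red); lines and bars are the mean ± SD, bars cut at 0, and the open circle is HFD+C2 replicate 1. Cish, Phlda1, Gadd45g, Acacb, Fasn and Foxa2 are lower in every HFD+C2 library, whereas for Mogat1, Nr1d1 and Zbtb16 HFD+C2 replicate 1 lies with or beyond the HFD libraries.

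Leaving out HFD+C2 replicate 1 added 24 genes to the 3 calls of the edgeR test. With all 6 libraries kept, DESeq2 called 12 of these 27 genes, limma-voom with library weights 22 and edgeR without a filter on low counts 21. The count of 27 rested on single libraries: it was 7 without HFD replicate 1, 859 without HFD replicate 2, 9 without HFD replicate 3, 4 without HFD+C2 replicate 2 and 79 without HFD+C2 replicate 3, each left out beside HFD+C2 replicate 1. All 27 were among the 859. Where 1 HFD+C2 library was left, its spread was assumed to be that of HFD. Of the lower genes named here, Phlda1, Cish, Cidea, Gadd45g, Resf1, Cidec, Acacb, Foxa2, Tubb2a, BC049987, Fdps, Spon2, Foxq1, Tbc1d31 and Mogat1 were also below 0 with all 6 libraries, while Mup-ps16 was at 0.094. The higher genes, Nr1d1, Dsg1c, Zbtb16, Slco1a4, Upp2, Mtss1, Cyp7a1, Erdr1, Asns and Por, were all above 0 with all 6 as well.

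Of these, Foxa2, Resf1, Foxq1, BC049987 and Acacb were also among the uncalled genes of smallest p in the comparison of all 6. Foxa2, a pioneer factor that opens liver enhancers and is restrained by insulin, was at 39.9, 41.5 and 35.1 CPM in HFD and at 11.8, 16.6 and 20.2 CPM in HFD+C2 (log2 change -1.26, SE 0.20, edgeR adjusted p 0.262; -1.08 and 0.0109 without HFD+C2 replicate 1). Resf1, a retroelement silencing factor, had a log2 change of -1.40 (SE 0.21; -1.57) and Foxq1, a forkhead factor, one of -1.36 (SE 0.21; -1.27). The long noncoding RNA BC049987 had one of -1.21 (SE 0.22; -1.34). Of the genes outside the calls with the smallest p, Npas2, Bmyc and Sh3pxd2a were lower, with log2 changes of -1.64 (SE 0.29; -1.53), -1.07 (SE 0.20; -1.02) and -0.79 (SE 0.15; -0.76), and none was called with or without HFD+C2 replicate 1.

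On the higher side the uncalled genes of smallest p were Arl4d, Dnajc12, Il15ra, Pgap1, Bcl6, Tle4, Cyp7a1 and Caap1, with log2 changes from 0.68 (Pgap1) to 1.60 (Cyp7a1). Arl4d, a small GTPase, was at 8.05, 5.67 and 6.31 CPM in HFD and 14.3, 11.4 and 11.9 CPM in HFD+C2. Dnajc12, a cochaperone, was at 4.26, 6.15 and 4.78 CPM and then at 10.5, 10.5 and 8.32 CPM. Il15ra, the receptor chain that presents interleukin-15, was at 8.78, 8.11 and 6.78 CPM and then at 15.9, 11.01 and 17.6 CPM. The edgeR adjusted p was 0.625, 0.661 and 0.695; the naming rule took only genes whose groups did not overlap, so their separation is no result.

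**Figure D3:**
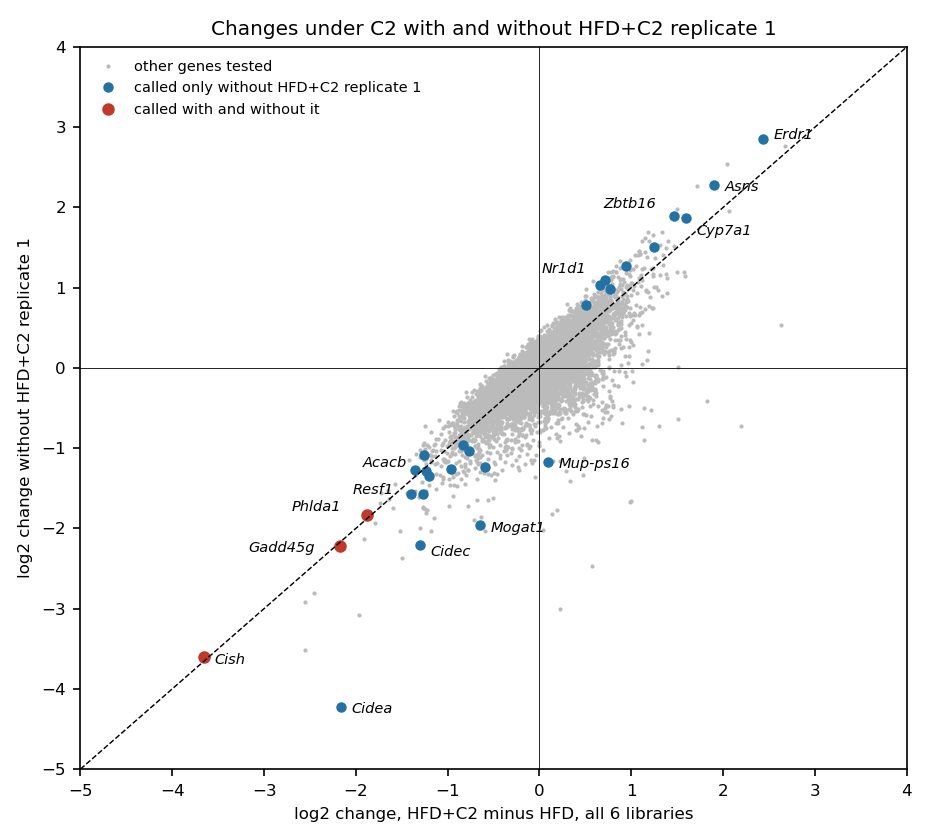
Each point is a tested gene: its log2 change (HFD+C2 minus HFD) with all 6 libraries on the horizontal axis and without HFD+C2 replicate 1 on the vertical axis, with the dashed line where both are equal. The 3 genes called both ways (red) lie on the line, while Cidea at -2.17 and -4.22, Cidec and Mogat1 lie well below it, and Mup-ps16 changes sign.

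None of the genes that make fatty acids and triglyceride was called by the edgeR test with all 6 libraries; Acacb and Fasn were each called in 3 of 11 other settings. Of the 22 tested members of de novo lipogenesis and triglyceride synthesis, 20 were below 0, against 47.8% of all genes. The median was -0.39, and 6 members had an unadjusted p under 0.05, all lower, against 3.70% of all genes. When HFD+C2 replicate 1 was left out the median was -0.18, 17 of 22 members were below 0, 9 had an unadjusted p under 0.05 and were lower, against 6.28% of all genes, and 2 of these were called, Acacb and Mogat1, against 0.126% of all genes called lower.

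Acacb (chr5:114146321-114250761) encodes ACC2, the mitochondrial acetyl-CoA carboxylase whose product malonyl-CoA blocks entry of fatty acids into mitochondria. It was at 24.0, 19.7 and 23.0 CPM in HFD and at 9.996, 7.87 and 10.4 CPM in HFD+C2, with a clear gap between the groups. The log2 change was -1.24 (SE 0.17, edgeR adjusted p 0.135), and without HFD+C2 replicate 1 it fell by 1.29 on the log2 scale (SE 0.17, edgeR adjusted p 0.00860). Fasn, the fatty acid synthase, was at 313, 193 and 268 CPM in HFD and 92.5, 132 and 121 CPM in HFD+C2. The groups did not overlap, and the log2 change of -1.16 (SE 0.23, edgeR adjusted p 0.606) missed the threshold also without HFD+C2 replicate 1 (-1.03, adjusted p 0.0670).

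Genes of elongation, desaturation and esterification were not called with all 6 libraries either. Elovl6, the elongase of saturated fatty acids, was at 48.9, 28.1 and 48.0 CPM and then at 21.7, 32.9 and 21.1 CPM, so HFD replicate 2 lay within the HFD+C2 range. Elovl5, which elongates polyunsaturated fatty acids, had a log2 change of -0.57 (SE 0.25; -0.72) and Gpam, the first enzyme of glycerolipid synthesis, one of -0.49 (SE 0.17; -0.49), neither called. Scd1, the desaturase that gives oleate, was at 5919, 3425 and 6489 CPM in HFD and 3585, 5500 and 3231 CPM in HFD+C2. Its groups overlapped (log2 change -0.36, SE 0.31, edgeR adjusted p 0.765; -0.27). Mogat1, which makes diacylglycerol, was at 16.7, 7.63 and 19.0 CPM in HFD and 20.6, 3.82 and 3.58 CPM in HFD+C2. It fell without HFD+C2 replicate 1 (log2 change -1.96, SE 0.33, edgeR adjusted p 0.0293), whereas with that library its change was -0.64 (SE 0.62).

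Cholesterol synthesis genes, targets of SREBP2, had 18 of 24 members below 0, against 47.8% of all genes, and a median of -0.28, or -0.15 without HFD+C2 replicate 1. Of them 3 had an unadjusted p under 0.05, all lower, against 3.70% of all genes. Fdps, farnesyl diphosphate synthase, was at 103, 120 and 110 CPM in HFD and 71.7, 50.5 and 63.6 CPM in HFD+C2, without overlap (log2 change -0.84, SE 0.18, edgeR adjusted p 0.625). It was called without HFD+C2 replicate 1 (-0.96, SE 0.15, edgeR adjusted p 0.0254). The mevalonate enzymes Mvd and Pmvk had log2 changes of -1.08 (SE 0.34; -1.22) and -0.43 (SE 0.17; -0.58), neither called.

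Among the lipid droplet genes, Cidea, Cidec and Plin2 differed most between HFD+C2 replicate 1 and the other HFD+C2 libraries of the members named here. Cidea and Cidec encode CIDE proteins that transfer lipid between droplets so that they grow; both are scarce in lean liver and abundant in steatotic liver. Cidea was at 70.5, 27.8 and 65.6 CPM in HFD, at 1.65 and 4.22 CPM in HFD+C2 replicates 2 and 3, and at 30.9 CPM in HFD+C2 replicate 1. The log2 change was -2.17 (SE 0.85, edgeR adjusted p 0.695) with that library and -4.22 (SE 0.44, edgeR adjusted p 0.00171) without it, when the gene was called. Cidec was at 70.1, 31.0 and 62.4 CPM in HFD and at 43.0, 10.4 and 13.2 CPM in HFD+C2, with HFD+C2 replicate 1 again within the HFD range. It changed by -1.30 (SE 0.51, edgeR adjusted p 0.695) with that library and was called at -2.21 (SE 0.29, edgeR adjusted p 0.00860) without it.

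Of all 24 tested members of the lipid droplet and fatty acid uptake list, 15 were below 0 (20 without HFD+C2 replicate 1), with a median of -0.14 (-0.26). At an unadjusted p under 0.05 there were 6 lower and 1 higher member, against 3.70% and 3.19% of all genes. Leaving out HFD+C2 replicate 1 gave 9 lower and 1 higher, against 6.28% and 4.81%. Fitm1, which helps droplets bud from the endoplasmic reticulum, was at 54.0, 33.7 and 46.5 CPM in HFD and 19.6, 26.6 and 24.8 CPM in HFD+C2 (log2 change -0.92, SE 0.21, edgeR adjusted p 0.695; -0.80). The lipases Mgll and Lipe had log2 changes of -0.55 (SE 0.19; -0.50) and -0.82 (SE 0.29; -0.74), and Lpl, which releases fatty acids from lipoproteins, lay the other way at 0.85 (SE 0.29; 0.85); none of these was called. Plin2, the main droplet coat of hepatocytes, was at 805, 664 and 783 CPM in HFD and 1010, 429 and 577 CPM in HFD+C2, the highest value of all being HFD+C2 replicate 1. Its log2 change was -0.16 (SE 0.30) with that library and -0.58 (SE 0.17, edgeR adjusted p 0.281) without it. Fatty acid oxidation, ketogenesis and PPARA targets had a median of -0.04 over 28 members, with none called and 1, lower, at an unadjusted p under 0.05. Leaving out HFD+C2 replicate 1 gave a median of -0.07, with 2 higher and 4 lower.

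Of the Cyp4 genes, which include those of the CYP4A enzymes named in the series title, none passed the test. The list holds Cyp4a and Cyp4f genes together with Cyp4b1, Cyp4v3 and Cyp4x1; of its 19 genes 14 were tested, 7 above and 7 below 0, with a median of -0.02 (0.12 without HFD+C2 replicate 1). Cyp4a14 was at 251, 160 and 246 CPM in HFD and 232, 370 and 247 CPM in HFD+C2 (log2 change 0.37, SE 0.25; 0.49). Cyp4a10 was at 257, 238 and 254 CPM and then at 164, 278 and 221 CPM (-0.18, SE 0.21; -0.00). In both the groups overlapped. Cyp4a12a was at 45.0, 130 and 44.3 CPM in HFD and 39.2, 38.9 and 44.1 CPM in HFD+C2, with HFD replicate 2 far above the other 5 libraries (-0.84, SE 0.38, edgeR adjusted p 0.695; -0.82). Without HFD replicate 2 the log2 change of Cyp4a12a was -0.12. The near-identical Cyp4a12b had the same high library (3.44, 16.3 and 3.92 CPM, against 2.75, 7.30 and 5.97 CPM), and how reads were split between such paralogs is not given in the sources used here. The member with the smallest p was Cyp4f17, at 8.21, 8.34 and 8.81 CPM in HFD and 4.31, 5.99 and 6.05 CPM in HFD+C2 (-0.63, SE 0.19, edgeR adjusted p 0.695; -0.49). Cyp4f14, an omega-hydroxylase of leukotrienes, was at 0.39 (SE 0.24; 0.57), and the remaining 8 members lay between -0.48 and 0.41. These are RNA levels and say nothing of enzyme activity.

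In the list of xenobiotic P450 genes, which also holds their receptors, the reductase Por and the epoxide hydrolase Ephx2, 16 of 24 tested members were above 0, with a median of 0.10 (0.21 without HFD+C2 replicate 1). Cyp2b13 had the lowest log2 change of them and was at 17.7, 16.5 and 16.5 CPM in HFD and 3.60, 10.9 and 4.30 CPM in HFD+C2, without overlap (log2 change -1.42, SE 0.36, edgeR adjusted p 0.695; -1.15). Its neighbour Cyp2b9 was at -0.70 (SE 0.25; -0.51) and Cyp3a13 at 0.47 (SE 0.18; 0.46), both uncalled. Por, the reductase that feeds electrons to all microsomal P450 enzymes, was at 64.3, 78.2 and 69.6 CPM in HFD and at 56.9, 126 and 118 CPM in HFD+C2. It rose without HFD+C2 replicate 1 (log2 change 0.79, SE 0.14, edgeR adjusted p 0.0436); with it the change was 0.51 (SE 0.27).

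Bile acid genes were the pathway list with the highest median but for 1, at 0.40, with 16 of 20 members above 0 and 4 with an unadjusted p under 0.05, all higher, against 3.19% of all genes. With HFD+C2 replicate 1 left out the median was 0.29, 8 members had an unadjusted p under 0.05 and were higher, against 4.81% of all genes, and 2 of these were called, Cyp7a1 and Slco1a4, against 0.0739% of all genes called higher. Cyp7a1, the rate-limiting enzyme of bile acid synthesis, was at 7.25, 4.02 and 6.38 CPM in HFD and 10.4, 29.9 and 12.9 CPM in HFD+C2. Every HFD+C2 library lay above every HFD library, with a wide spread among them (log2 change 1.60, SE 0.39, edgeR adjusted p 0.695). Without HFD+C2 replicate 1 it rose by 1.86 on the log2 scale (SE 0.30, edgeR adjusted p 0.0282). Slco1a4, an uptake transporter of organic anions, was at 16.0, 10.5 and 18.4 CPM in HFD and 14.0, 38.9 and 33.1 CPM in HFD+C2 and rose without HFD+C2 replicate 1 (1.27, SE 0.20, edgeR adjusted p 0.0223). Nr1h4, the bile acid receptor FXR, was at 66.6, 73.8 and 66.5 CPM and then at 137, 92.1 and 94.9 CPM, without overlap, and Nr0b2, its target SHP, had a log2 change of 0.50 (SE 0.21; 0.66). Neither of these was called.

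None of the clock and glucocorticoid-responsive genes was called with all 6 libraries, and of 19 clock genes 2 were higher and 1 lower at an unadjusted p under 0.05, against 3.19% and 3.70% of all genes. Leaving out HFD+C2 replicate 1 gave 6 higher and 2 lower clock genes, against 4.81% and 6.28%. Of the glucocorticoid-responsive genes 1 was higher and 2 lower with all 6 libraries. Without HFD+C2 replicate 1 there were 8 higher and 1 lower, against the same shares of all genes. Nr1d1, the repressor REV-ERB alpha, was at 28.4, 22.8 and 23.9 CPM in HFD, at 52.4 and 49.9 CPM in HFD+C2 replicates 2 and 3 and at 16.5 CPM in HFD+C2 replicate 1. It rose without that library (log2 change 1.03, SE 0.14, edgeR adjusted p 0.00860); with it the change was 0.66 (SE 0.36). Npas2, an activator of the clock, was at 3.79, 5.17 and 3.09 CPM in HFD and 1.04, 1.16 and 1.63 CPM in HFD+C2 (edgeR adjusted p 0.419). Per2, a repressor, was at 2.96, 3.17 and 2.23 CPM and then at 3.84, 8.17 and 4.42 CPM, and the output gene Dbp at 3.40, 1.22 and 2.51 CPM and then at 1.94, 5.06 and 7.65 CPM. The 19 members tested had a median of 0.11, which was -0.07 with genes of a mean of at least 50 counts. The labels used here give no time of day for the collection of the livers.

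Zbtb16, a zinc finger factor induced by glucocorticoids, was at 2.51, 4.22 and 2.90 CPM in HFD and 2.7, 16.1 and 7.81 CPM in HFD+C2. It rose without HFD+C2 replicate 1 (log2 change 1.89, SE 0.29, edgeR adjusted p 0.0219) and was at 1.47 (SE 0.52, edgeR adjusted p 0.695) with it. The 18 glucocorticoid-responsive genes had 13 members above 0 and a median of 0.29, which was -0.14 without HFD+C2 replicate 2. Upp2, a liver uridine phosphorylase, was at 22.0, 24.8 and 25.1 CPM in HFD and 35.5, 92.5 and 43.3 CPM in HFD+C2, without overlap, and was called without HFD+C2 replicate 1 (1.502, SE 0.23, edgeR adjusted p 0.0224). In Zbtb16, Upp2 and Cyp7a1 the highest library was HFD+C2 replicate 2.

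The remaining genes called higher without HFD+C2 replicate 1 were of mixed function. Asns, the asparagine synthetase of the amino acid response, was at 0.763, 0.372 and 0.431 CPM in HFD and 0.711, 3.296 and 1.87 CPM in HFD+C2, overlapping. Its log2 change was 1.90 with all 6 libraries (SE 0.54, edgeR adjusted p 0.695) and 2.29 without HFD+C2 replicate 1 (SE 0.38, edgeR adjusted p 0.0299). Dsg1c, a desmosomal cadherin, and Mtss1, an actin and membrane scaffold, rose by 1.09 (SE 0.15) and 0.98 (SE 0.15) on the log2 scale without that library. With all 6 libraries Dsg1c had a log2 change of 0.72 (SE 0.38, edgeR adjusted p 0.696), and HFD+C2 replicate 1, at 5.02 CPM, lay below the 7.32 to 8.55 CPM of HFD. Erdr1, which the annotation lists as a transcribed pseudogene, was at 0.0954, 0.473 and 0.235 CPM in HFD, the lowest resting on 3 reads, and at 0.426, 1.76 and 2.15 CPM in HFD+C2. On the lower side Tubb2a, a beta-tubulin, was at 339, 179 and 293 CPM in HFD and 155, 101 and 81.5 CPM in HFD+C2, and Spon2, a secreted matrix protein, at 32.6, 25.1 and 39.4 CPM and then at 23.0, 11.1 and 15.9 CPM. Neither overlapped between the groups with all 6 libraries, and both were called by edgeR without HFD+C2 replicate 1 (edgeR adjusted p 0.0219 and 0.0291) and not with it (0.695 for each). With all 6 libraries Tubb2a was called in 3 and Spon2 in 2 of 11 other settings.

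No macrophage marker was called. Of 18 markers, all tested, 7 had an unadjusted p under 0.05, all higher, against 3.19% of all genes, and 15 were above 0. The median was 0.43, or 0.29 without HFD+C2 replicate 1. The summed level was 238, 313 and 237 CPM in HFD and 569, 387 and 299 CPM in HFD+C2, so HFD+C2 replicate 1 was highest and HFD+C2 replicate 3 lay within the HFD range. Adgre1, which encodes F4/80, was at 3.24, 5.78 and 3.49 CPM in HFD and 7.44, 7.68 and 6.65 CPM in HFD+C2 (log2 change 0.80, SE 0.25, edgeR adjusted p 0.695; 0.78). Clec4f, a Kupffer cell lectin, was at 60.9, 68.8 and 61.8 CPM and then at 180, 85.4 and 64.0 CPM, overlapping. Lyz2 and Cd5l had log2 changes of 0.77 (SE 0.25; 0.49) and 0.93 (SE 0.32; 0.45).

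Acute-phase and complement genes lay with these, 20 of 25 above 0 with a median of 0.24 (0.27 without HFD+C2 replicate 1) and 5 higher and 1 lower at an unadjusted p under 0.05, against 3.19% and 3.70% of all genes. With HFD+C2 replicate 1 left out 9 were higher and 0 lower, against 4.81% and 6.28%. Fgb, fibrinogen beta, was at 4082, 5253 and 3677 CPM in HFD and at 7925, 7675 and 5550 CPM in HFD+C2, without overlap, and was not called. Itih3 and Apcs had log2 changes of 0.56 (SE 0.20; 0.60) and 0.73 (SE 0.25; 0.42). Of the 3 neutrophil markers tested the median was 0.68 with all 6 libraries and -0.51 without HFD+C2 replicate 1, and Ly6g had no read. Of the lymphocyte markers 5 were tested, with a median of 0.12 (-0.28 without HFD+C2 replicate 2), and Trac and Ighm had no read. Endothelial markers had a median of 0.24 over 10, cholangiocyte markers 0.07 over 6, adipocyte markers 0.10 over 3 (-0.22 without HFD+C2 replicate 1), erythroid markers -0.22 over 5 and hepatocyte markers 0.16 over 10, with none called. The part of immune cells in the changes of other genes was not tested.

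Stellate cell and matrix genes showed no common direction. Lum, a matrix proteoglycan, was at 1.56, 1.59 and 1.49 CPM in HFD and 3.55, 2.92 and 2.43 CPM in HFD+C2 (log2 change 0.94, SE 0.24; 0.79), while the collagen genes Col1a1 and Col1a2 were at -0.67 (SE 0.29; -0.45) and -0.38 (SE 0.17; -0.36); none was called. Over 15 markers the median was 0.13, which was -0.05 without HFD+C2 replicate 2. Unfolded protein response genes had a median of 0.09 over 27 members (-0.05 without HFD+C2 replicate 2): Herpud1 was at 0.65 (SE 0.24; 0.82) and Chac1, a glutathione-degrading enzyme, at -0.78 (SE 0.25; -0.72). Apoptosis regulators had 18 of 24 members above 0 and a median of 0.18. Bcl2, the survival protein, was at 0.84 (SE 0.32; 0.77), the executioner Casp6 at 0.38 (SE 0.15; 0.39), and the death receptor Tnfrsf10b at -1.001 (SE 0.42; -1.16). None of these genes was called.

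NRF2 and oxidative stress genes had 18 of 26 members below 0 and a median of -0.17, the same without HFD+C2 replicate 1. Of these 4 had an unadjusted p under 0.05, all lower, against 3.70% of all genes. Gstm3, a glutathione transferase, was at 126, 43.7 and 113 CPM in HFD and 21.8, 33.9 and 29.8 CPM in HFD+C2, without overlap (log2 change -1.72, SE 0.36, edgeR adjusted p 0.625; -1.56), HFD replicate 2 lying near the HFD+C2 range. Cell cycle genes had 16 of 21 below 0, against 47.8% of all genes, a median of -0.22 and none called. Of them 3 had an unadjusted p under 0.05, all lower, against 3.70% of all genes. Without HFD+C2 replicate 1 there were 18 of 21 below 0, against 49.9% of all genes, and 4 lower at an unadjusted p under 0.05, against 6.28%. Insulin signalling genes had a median of -0.09 (-0.01 without HFD+C2 replicate 1), and in them Irs2 and Enho, which encodes the peptide adropin, were at 0.75 (SE 0.30; 0.85) and 0.82 (SE 0.24; 0.98), uncalled. Glycolysis and gluconeogenesis genes had a median of -0.06 over 20 and 0 with an unadjusted p under 0.05. The median turned to 0.02, with 2 higher, when HFD+C2 replicate 1 was left out. In the zonation list the median was 0.11 over 22, with 0 higher and 1 lower at an unadjusted p under 0.05. When HFD+C2 replicate 1 was left out it was 0.27, with 7 higher (4.81% of all genes) and 1 lower. Of its members Rhbg, an ammonium transporter of the cells around the central vein, was at 8.08, 7.6 and 7.17 CPM in HFD and 4.22, 4.27 and 3.70 CPM in HFD+C2 (log2 change -0.91, SE 0.18, edgeR adjusted p 0.606; -0.93).

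**Figure D4:**
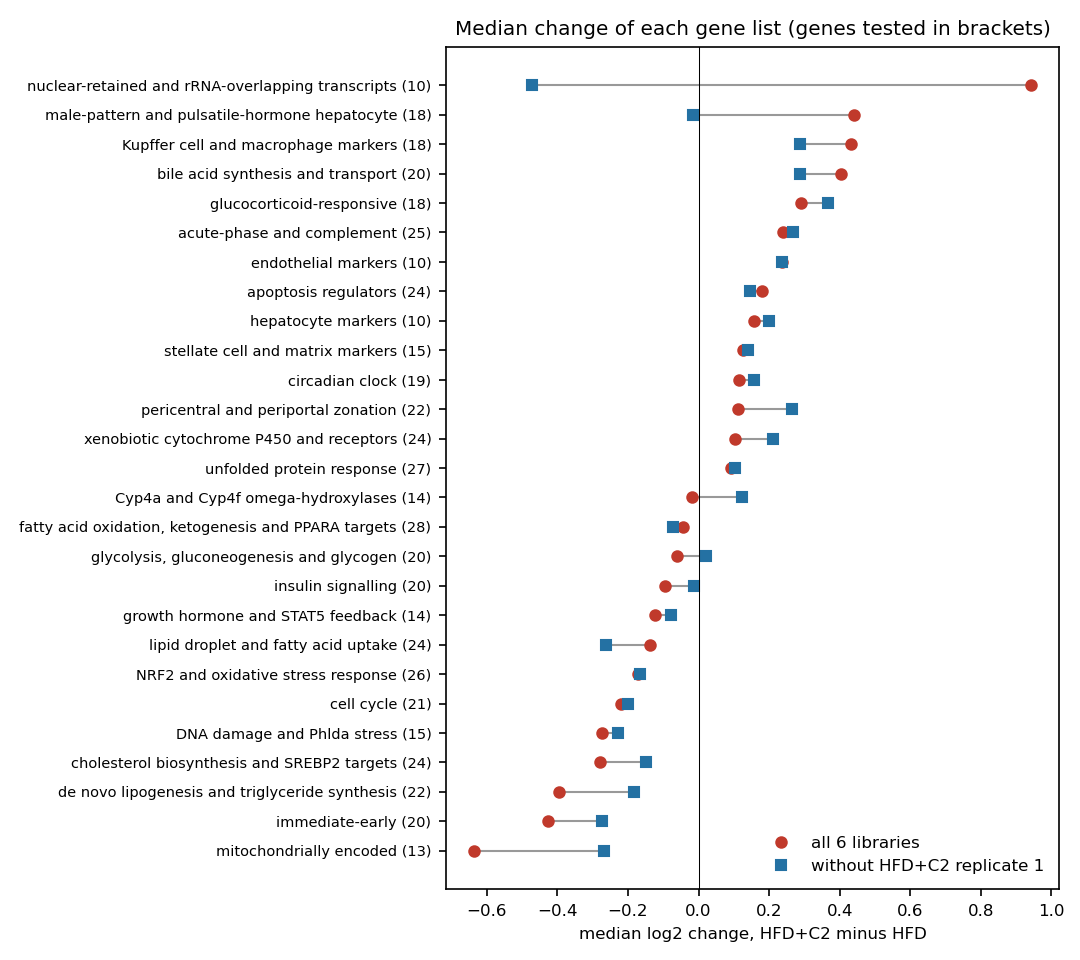
Median log2 change (HFD+C2 minus HFD, horizontal axis) of each gene list with at least 10 tested members, with all 6 libraries (red circles) and without HFD+C2 replicate 1 (blue squares); the number of genes tested is in brackets. The lists of nuclear-retained and ribosomal-repeat transcripts and of male-pattern hepatocyte genes move from 0.94 and 0.44 to below 0 without that library. Lipogenesis, immediate-early, macrophage and bile acid genes keep their side.

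Some list medians moved most with HFD+C2 replicate 1. Nuclear-retained and ribosomal-repeat transcripts had a median of 0.94 with it and -0.47 without it. Male-pattern hepatocyte genes, which include the major urinary proteins, had 0.44 and -0.02, none of 18 called in either. Mitochondrially encoded protein-coding RNAs had -0.64 with it and -0.27 without it. Mup-ps16, annotated as a protein-coding Mup gene, was at 64.3, 54.8 and 76.0 CPM in HFD and 151, 24.4 and 33.3 CPM in HFD+C2. It was called lower without that library (log2 change -1.17, SE 0.18, edgeR adjusted p 0.0219), and Mup genes are near-identical copies whose reads can be split in ways not given in the sources used here. Tbc1d31 showed a like pattern, at 19.2, 13.4 and 20.3 CPM in HFD and 20.3, 6.78 and 8.21 CPM in HFD+C2.

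Both compounds were given at the same dose for the same time, so HFD+C2 was compared directly with HFD+C1, with no HFD library involved. Of 13229 genes edgeR called 0 (0.00%), with 608 at an unadjusted p under 0.05 (4.60%), and DESeq2 called 3. The difference is HFD+C2 minus HFD+C1, with its 95% interval. Cish was at 2.41, 0.396 and 4.70 CPM in HFD+C1 and 1.06, 1.17 and 1.16 CPM in HFD+C2, a difference of -1.12 on the log2 scale (-2.61 to 0.36). Phlda1 was at 25.9, 28.5 and 28.8 CPM in HFD+C1 and 18.7, 18.7 and 22.1 CPM in HFD+C2. That difference was -0.48 (-0.81 to -0.16, edgeR adjusted p 0.841) and was not called. Gadd45g had a difference of 0.22 (-0.24 to 0.67), and any value within that interval fits these libraries.

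With HFD+C2 replicate 1 left out, 1 gene of 13184 (0.00758%) was called between the compounds, and 834 (6.33%) had an unadjusted p under 0.05. Zbtb16 was at 2.33, 2.51 and 2.35 CPM in HFD+C1 and at 2.74, 16.2 and 7.87 CPM in HFD+C2. The difference was 2.33 on the log2 scale (SE 0.27, edgeR adjusted p 0.0454) without HFD+C2 replicate 1, and 1.91 (0.72 to 3.10, edgeR adjusted p 0.841) with it. Acacb was at 25.0, 8.71 and 22.2 CPM in HFD+C1 and at 10.2, 7.95 and 10.5 CPM in HFD+C2 (-0.97, -1.74 to -0.19), HFD+C1 replicate 2 lying within the HFD+C2 range. Fdps was at 278, 93.2 and 124 CPM in HFD+C1 and 72.9, 51.1 and 64.2 CPM in HFD+C2 (-1.40, -2.24 to -0.55). Cidea was at 15.8, 5.23 and 24.7 CPM in HFD+C1 and at 31.4, 1.67 and 4.26 CPM in HFD+C2. Its difference was -0.30 (-2.35 to 1.75) with all libraries and -2.37 without HFD+C2 replicate 1 (edgeR adjusted p 0.528). None of these 3 was called, and the intervals of Acacb and Fdps are those with all libraries.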

How the data were processed

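Liver RNA of 12 mouse libraries was sequenced, 3 per group in 4 groups; the 6 of HFD and HFD+C2 are used here, 3 of HFD+C1 in 1 further comparison, and all 12 in 1 alternative fit. The authors deposited read counts per gene (50559 genes by symbol). The tables are called normalized, but all values are whole numbers and the HFD columns are equal between tables (0 cells differ), so they were treated as raw counts; 0 value columns were left unmapped. The submitters' processing notes name Trimmomatic 0.39, STAR 2.7, DESeq2 and mm10, without roles; annotation and strand use are not given in the sources used here, so genes and antisense partners cannot be told apart. The 4 rows that name no gene (27.4% to 47.1% of the reads in the 6 libraries of HFD and HFD+C2) were left out of library sizes and tests.

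Genes averaging 10 counts or more in the libraries compared were tested with edgeR 4.0.16 (R 4.3.3): TMM scaling, quasi-likelihood test, Benjamini-Hochberg adjustment over all genes tested, call at an adjusted p under 0.05. SE is the log2 change divided by the square root of F. No covariate was used: deviations of same-numbered HFD and HFD+C2 libraries correlated at -0.0072, 0.0031 and -0.13. These values gave no sign that the numbers pair samples but cannot exclude it, as HFD+C2 replicate 1 stands apart. Pairs of libraries differed by far more than sampling noise, so each counts as 1 replicate. A floor of 3 counts is 0.0934 to 0.130 CPM; this floor covers counting error only, while the 95% intervals of log2 differences come from the edgeR fit and include the spread between libraries.

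Members, 34 gene lists and tests were chosen with earlier results of these data known. Named were the genes called with all 6 libraries or without HFD+C2 replicate 1, up to 8 uncalled genes per direction of smallest p with groups apart and at least 50 counts on average, Cyp4 genes, and of each list up to 4 of smallest p and 2 of highest level, from which the text selects; some genes that the rule names are not reported here. Alternatives were DESeq2 1.42.0, limma-voom 3.58.1 with and without library weights, RLE and upper-quartile scaling, robust dispersions, no low-count filter or one at 50, a block for the replicate number, all 12 libraries in 1 fit, each library left out, and, added after seeing the data, a second library left out beside HFD+C2 replicate 1 and GC offsets. Start-site sequences and positions come from RefSeq (GRCm38.p6), GC content and length from GENCODE M21 transcripts (95.3% of tested genes matched). The test was tested on simulated data, in which the libraries of a group shared the same expected level apart from their size. Of 99 genes given a log2 change of 1 in size it recovered 38.4%, and of 98 given one of 2 it recovered 90.8%. It made 12 false calls. A gene that was not called may therefore still have changed 2-fold.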

Additional observations from a re-analysis of the deposited data

Results flagged for a closer look

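In HFD+C2 replicate 1 the reads outside genes were above all HFD libraries in 3 classes: 9.04% were ambiguous between genes (3.91% to 4.96% in HFD), 10.9% lay in no annotated feature (4.92% to 6.84%) and 21.9% were unmapped (12.8% to 16.6%). The other HFD+C2 libraries had 3.92% and 3.99% ambiguous, 4.86% and 4.66% in no feature and 11.4% and 12.2% unmapped reads. With all libraries the direct test of the compounds called 0 genes, and Zbtb16 had an edgeR adjusted p of 0.841. Without HFD+C2 replicate 1, in which it was at 2.74 CPM and so near the 2.33 to 2.51 CPM of HFD+C1, Zbtb16 was called, with a log2 difference of 2.33 between HFD+C2 and HFD+C1.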

How the results depend on the processing

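The 3 calls became 2 under RLE or upper-quartile scaling, 35 with DESeq2, 1 with limma-voom, 54 with library weights, 152 of 28606 genes without a filter and 0 in a fit of all 12 libraries (728 at an unadjusted p under 0.05). Leaving out 1 library gave 0 to 27 calls, and leaving out a second beside HFD+C2 replicate 1 gave 4 to 859. With the replicate number as a block 3 genes were called, the same 3, and 0 between the compounds. The labels do not say whether the numbers pair the samples. The comparison of C2 with C1 (0 calls) gave 3 with DESeq2, 162 without a filter and 0 to 1 with a library left out. GC offsets gave 3 calls, of which 2 were among the 3. The cause of these differences was not tested.

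The signs of Cish, Phlda1 and Gadd45g were kept in all settings. For Mup-ps16 (0.094) the sign turned with limma-voom (-0.37), library weights (-1.09), the block (-0.41) and GC offsets (-0.17), and it ranged from -1.41 to 0.50 with 1 library left out, alone or beside HFD+C2 replicate 1. Over the same left-out libraries Cyp4a10 ranged from -0.38 to 0.15, Cyp4a12b from -0.92 to 0.86 (0.42 with library weights), Scd1 from -0.71 to 0.060, Plin2 from -0.81 to 0.081, Socs2 from -1.64 to 0.21 and Onecut1 from -1.66 to 0.45. Genes averaging under 10 counts could not be called at this depth with the filter used.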

Other observations

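HFD replicate 2 differed from the other HFD libraries across genes, though few set it apart from all 5 other libraries (11 more than 2-fold above and 27 below). The other HFD libraries had 6 and 2 above and 34 and 63 below. Over 11078 genes its log2 CPM correlated at 0.9905 with HFD+C2 replicate 3 and 0.9855 with HFD+C2 replicate 2. With HFD replicates 1 and 3 it correlated at 0.9849 and 0.9848, while those correlated at 0.9927 with each other. HFD replicate 2 thus lay nearer to these HFD+C2 libraries than to its own group. Single genes that differed in it included some of growth hormone signalling. Cish was at 21.4 CPM in it against 10.8 and 10.3 CPM, Socs2 at 11.9 against 3.40 and 3.60 CPM, and Onecut1, a liver transcription factor, at 13.4 against 1.84 and 1.76 CPM. Cyp4a12a was at 130 against 45.0 and 44.3 CPM, and the urinary protein gene Mup15 at 524 against 81.5 and 65.6 CPM. Bcl6 lay the other way, at 3.95 against 11.4 and 11.7 CPM. Ghr, the receptor of the same list, was at 361 CPM in it against 331 and 331 CPM. Leaving out HFD replicate 2 alone gave 4 calls, and leaving it out together with HFD+C2 replicate 1 gave 859; the cause was not tested.

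In HFD+C2 replicate 1 Mup15 was at 1185 CPM, above all other libraries, while Cish was at 1.04 CPM in it, as low as in the other HFD+C2 livers. In HFD+C2 replicates 2 and 3 Mup15 was at 11.6 and 129 CPM. Onecut1 and Mup15 were chosen after their values were seen.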
